A study of Mus musculus with 15 samples.

Results

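The immediate early genes are switched on within minutes of a stimulus, before any new protein is made, and the inducible heat shock genes respond to unfolded protein in a similar way. Growth factor and kinase signals act on the first kind through factors already bound at the promoter, and heat shock factor 1 acts on the second. Handling and dissection of tissue are known to induce both kinds, so their levels are often read as a record of what happened to a sample around the time of collection. Here 10 such genes, namely Fos, Fosb, Jun, Junb, Egr1, Ier2, Atf3, Dusp1, Hspa1a and Hspa1b, were taken by name from the 55421 genes listed, by a rule that sets no threshold on a measured value. All 10 of 10 passed the filter on low counts and low variance, among 18979 genes that were tested.

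Posterior eyecups, which hold the retinal pigment epithelium (RPE), choroid and sclera after removal of the neural retina, came from 2.5-month-old C57BL/6J mice of both sexes. The groups were WT mice (n = 4), mice with 1 copy of the Tmem135 FUN025 allele (FUN025/+, n = 6) and mice with 2 copies (FUN025/FUN025, n = 5), with 1 library per mouse. FUN025 is a germline mutation of Tmem135, the gene of a transmembrane protein found at mitochondria, so every cell type of the eyecup carried it. The eyecups of a mouse were pooled, collected around midday and flash frozen, and neither the sex nor the order of dissection of a single mouse was known here. By the study's description the sexes were balanced in WT but not in the mutants, with more males in FUN025/+ and more females in FUN025/FUN025, and the part of sex in any result was not tested. In bulk tissue, fewer cells of a type and less RNA per cell cannot be told apart.

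Library totals were 18094977 to 20029919 counts in WT, 10903183 to 13456349 in FUN025/+ and 11053535 to 15038383 in FUN025/FUN025, so that each WT library was deeper than each mutant library, and depth and genotype cannot be told apart. Tmem135 itself was at 63.96 ± 2.99 CPM (counts scaled to library size, per 1000000; mean ± SD) in WT, 75.0 ± 7.30 in FUN025/+ and 88.3 ± 4.57 in FUN025/FUN025, which does not check the labels, since the allele does not remove the transcript. The 8 RPE markers summed to between 16243 and 21813 CPM in all libraries. Other tissues varied more. The sum of 10 rod markers ran from 86.8 to 2232 CPM, that of 10 skeletal muscle markers from 2233 to 7541 CPM, that of 5 blood markers from 22.5 to 297 CPM and that of 6 lens markers from 4.17 to 209.8 CPM. A list of 10 surface epithelium genes, added after values had been seen, summed to between 340.4 and 5035 CPM, and it is taken up with the heat shock genes.

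The promoter sequences of the members show what the gene group shares and where it differs. RefSeq sequence (GRCm38.p6) was held for 8 of the 10 members, and 4 are printed, each as the 250 bases before the transcription start, 5′ to 3′ on the strand of the gene. Hspa1a (chr17:34972157-34972406, minus strand) and Hspa1b (chr17:34959239-34959488, minus strand) are shown because the pair is nearly the same in sequence yet differed in behaviour. Fos (chr12:85473640-85473889, plus strand) and Dusp1 (chr17:26508473-26508722, minus strand) are shown as 1 of several pairs whose levels were correlated over all 15 libraries. With genotype means removed, Pearson's r was 0.831, and Fos had a higher r with Junb (0.926) and Ier2 (0.836). Without FUN025/+ 6 and FUN025/FUN025 4, Fos with Dusp1 no longer passed (adjusted permutation p = 0.162). Capitals mark GAANNTTC, a pair of heat shock units, in the heat shock genes, and TGACGT, the core of the cyclic AMP response element, on either strand in Fos and Dusp1.
Hspa1a: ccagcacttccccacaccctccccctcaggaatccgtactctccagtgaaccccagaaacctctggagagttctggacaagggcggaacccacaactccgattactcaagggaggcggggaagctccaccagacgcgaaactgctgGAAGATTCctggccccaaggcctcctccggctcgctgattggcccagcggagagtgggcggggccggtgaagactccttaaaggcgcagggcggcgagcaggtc
Hspa1b: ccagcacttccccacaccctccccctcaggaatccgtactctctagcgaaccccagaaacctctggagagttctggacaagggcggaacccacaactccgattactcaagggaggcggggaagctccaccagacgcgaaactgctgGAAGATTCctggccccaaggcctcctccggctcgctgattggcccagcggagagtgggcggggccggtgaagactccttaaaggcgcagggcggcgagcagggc
Fos: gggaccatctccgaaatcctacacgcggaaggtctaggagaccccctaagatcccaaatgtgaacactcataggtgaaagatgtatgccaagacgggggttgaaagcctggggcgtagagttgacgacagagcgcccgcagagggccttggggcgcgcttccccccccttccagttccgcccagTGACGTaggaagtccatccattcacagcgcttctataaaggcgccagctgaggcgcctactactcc
Dusp1: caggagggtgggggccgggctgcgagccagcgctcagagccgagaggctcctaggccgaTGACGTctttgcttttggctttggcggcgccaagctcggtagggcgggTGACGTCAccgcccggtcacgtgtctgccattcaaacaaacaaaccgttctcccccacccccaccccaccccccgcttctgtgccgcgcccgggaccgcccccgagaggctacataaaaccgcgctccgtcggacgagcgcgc
The upstream sequences of Hspa1a and Hspa1b differed at 3 of 250 positions, counted from the 5′ end (C44T, T47C and T249G, with the base of Hspa1a first), an identity of 98.8%. The GAANNTTC match lay 104 to 97 bases before the start in both genes. That motif was present in 3 of the 8 members with sequence, the third being Jun, and in 6.69% of 32851 mouse promoters of the same length searched on both strands. The reverse arrangement TTCNNGAA (7.17% of promoters) and the heat shock element of 3 units, which is GAANNTTC followed by NNGAA (0.466%), were matched in 0 of the 8 members, Hspa1a and Hspa1b included. TGACGT was held by Fos, Atf3 and Dusp1 and by 6.47% of all promoters. The full palindrome TGACGTCA, which contains that core, was held by Dusp1 alone among the 8 members and by 1.55% of all promoters. Junb, without TGACGT, had a higher r with Fos (0.926) than Dusp1 had, and Atf3, with it, had a lower one (0.264). A link between this motif and the levels was not tested. TATAAA was found in Fos and in 12.4% of promoters, and GCGGGGGCG, an EGR1 site, in Fosb and in 2.57%. A serum response CArG box was not matched in these 250 bases of any of the 8 members (1.47% of all promoters), nor was the AP-1 site TGANTCA (6.75%). Such matches are a description of the letters in this window.

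None of the 10 members changed with genotype at an adjusted p under 0.05 by edgeR's quasi-likelihood test, with p-values adjusted over all 18979 genes. For FUN025/+ relative to WT the count was 0 of 10, where 13.7% of all genes tested passed. For FUN025/FUN025 relative to WT it was 0 of 10 against 14% of all genes, and for FUN025/FUN025 relative to FUN025/+ it was 0 of 10 against 0.522%. At an unadjusted p under 0.05 the count was also 0 of 10 in each comparison, where 28.8%, 28.6% and 6.23% of all genes passed. DESeq2's Wald test and limma-voom called 0 of 10 as well. The groups overlapped for each member in each comparison, whereas they did not overlap for 10.9%, 14.8% and 1.12% of all genes. The comparisons share groups (both mutants are set against the same 4 WT mice), so their values are not independent of each other.

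The median log2 fold change of the 10 members was -0.23 for FUN025/+ relative to WT, with 7 of 10 below 0, and that of all genes tested was -0.0023, with 50.5% below 0. For FUN025/FUN025 relative to WT the member median was -0.0026 with 5 of 10 below 0, beside -0.0071 and 51.4% for all genes. For FUN025/FUN025 relative to FUN025/+ it was 0.030 with 3 of 10 below 0, beside -0.0040 and 51.8%. The lowest count of any member was 13 (Fosb), for which counting error alone is 27.7%, and the lowest count of Jun was 540, for which it is 4.30%. The 95% intervals were wide. That of Fos in FUN025/+ relative to WT ran from -1.14 to 0.52 on the log2 scale and that of Hspa1a, the narrowest, from -0.36 to 0.23.

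**Figure D1:**
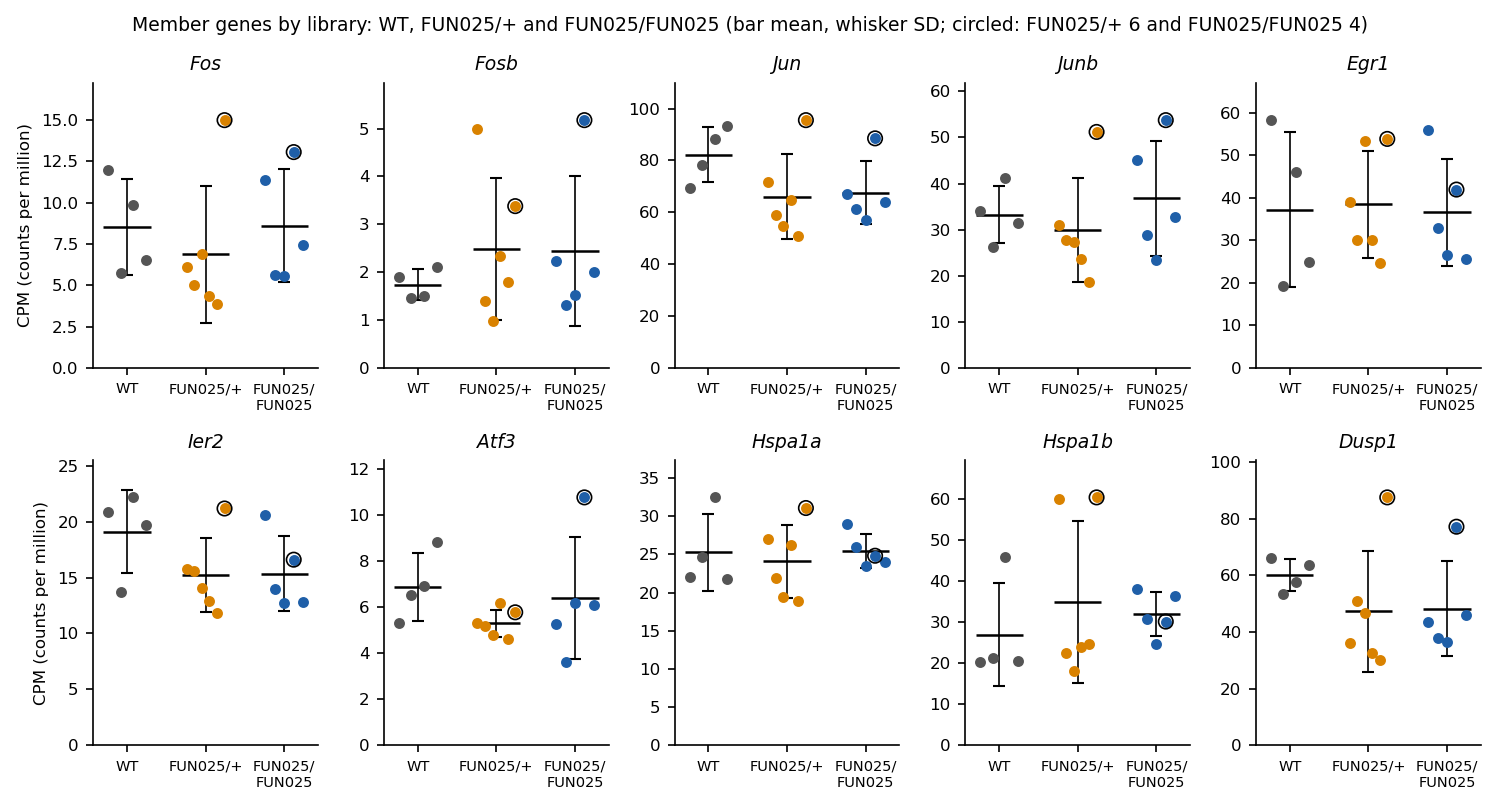
CPM (linear axis from 0) of each of the 10 genes in the 15 libraries, 1 point per mouse, for WT (grey), FUN025/+ (orange) and FUN025/FUN025 (blue); horizontal bars are means, whiskers are SD, and circles mark the libraries FUN025/+ 6 and FUN025/FUN025 4. The 3 genotypes overlap in every panel, and FUN025/+ 6 was the highest library of its genotype for 8 of 10 genes.

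Fos (ENSMUSG00000021250, chromosome 12, 85473890 to 85477273 on the plus strand, GRCm38) encodes a leucine zipper protein that pairs with a Jun protein to form the transcription factor AP-1. It was at 11.96, 5.76, 9.84 and 6.51 CPM in the WT libraries 1 to 4. In FUN025/+ the lowest library had 3.86 CPM, the median was 5.55 CPM and the highest had 15.005 CPM. The FUN025/FUN025 libraries had 11.4, 5.62, 5.54, 13.1 and 7.44 CPM. High and low libraries were thus present in each genotype, with a 3.89-fold range inside FUN025/+ alone. The log2 fold change was -0.31 ± 0.39 (SE; adjusted p = 0.637, edgeR) in FUN025/+ and 0.018 ± 0.40 (adjusted p = 0.984, edgeR) in FUN025/FUN025, each relative to WT.

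Fosb (ENSMUSG00000003545, chromosome 7, 19302696 to 19310051, minus strand), a second Fos family partner in AP-1, was the member with the fewest counts. The WT libraries had 1.89, 1.45, 1.499 and 2.11 CPM, a narrow set. FUN025/+ ran from 0.973 CPM through a median of 2.07 to 4.996 CPM, and FUN025/FUN025 had 2.23, 1.31, 1.53, 5.18 and 1.996 CPM. In each mutant genotype at least 1 mouse lay above all WT mice, at least 1 lay below all of them and the others lay between. The log2 fold changes relative to WT were 0.52 ± 0.43 (SE; adjusted p = 0.455, edgeR) in FUN025/+ and 0.49 ± 0.45 (adjusted p = 0.512, edgeR) in FUN025/FUN025.

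Jun (ENSMUSG00000052684, chromosome 4, 95049034 to 95052222, minus strand) encodes the Jun partner of AP-1 that is activated by Jun kinases. It had 69.3, 78.4, 88.2 and 93.3 CPM in WT. FUN025/+ ran from 50.8 through a median of 61.8 to 95.6 CPM, and FUN025/FUN025 had 67.1, 61.4, 57.1, 88.5 and 63.8 CPM. Most mutant libraries lay below the lowest WT library, but FUN025/+ 6 lay above all WT libraries, and FUN025/+ 1 and FUN025/FUN025 4 lay among them. The log2 fold change was -0.32 ± 0.17 (SE; adjusted p = 0.237, edgeR) in FUN025/+, with a 95% interval of -0.68 to 0.047, and -0.28 ± 0.18 (adjusted p = 0.313, edgeR) in FUN025/FUN025. Among the fits with single mice left out, Jun passed the threshold in FUN025/+ relative to WT only without FUN025/+ 6 (-0.45, adjusted p = 0.0391 in edgeR). That library was the highest of its genotype for Jun, so leaving it out lowers the FUN025/+ mean in any case.

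Junb (ENSMUSG00000052837, chromosome 8, 84974484 to 84978718, minus strand), a Jun family member that often restrains Jun, stood at 33.9, 26.3, 41.2 and 31.4 CPM in WT. It ran from 18.5 through a median of 27.5 to 51.2 CPM in FUN025/+, and was at 45.2, 28.8, 23.3, 53.8 and 32.8 CPM in FUN025/FUN025. Its highest libraries in the mutants, FUN025/FUN025 4 and FUN025/+ 6, were also the highest of their genotypes for Fos. The log2 fold changes relative to WT were -0.15 ± 0.28 (SE; adjusted p = 0.765, edgeR) and 0.15 ± 0.29 (adjusted p = 0.780, edgeR).

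Egr1 (ENSMUSG00000038418, chromosome 18, 34859823 to 34864984, plus strand), a zinc finger factor induced by growth factors and neuronal activity, had its widest range in WT. The WT libraries had 58.3, 19.3, 46.1 and 24.9 CPM, a 3.02-fold range. FUN025/+ ran from 24.6 through a median of 34.6 to 53.8 CPM, and FUN025/FUN025 had 55.8, 32.8, 26.6, 41.9 and 25.5 CPM. Both mutant genotypes lay within the WT range. Relative to WT, its log2 fold changes were 0.057 ± 0.35 (SE; adjusted p = 0.938, edgeR) and -0.018 ± 0.36 (adjusted p = 0.982, edgeR), and the 95% interval of the second ran from -0.81 to 0.77.

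Ier2 (ENSMUSG00000053560, chromosome 8, 84661331 to 84662852, minus strand), a serum-induced nuclear protein gene, had 20.9, 13.7, 22.2 and 19.7 CPM in WT. FUN025/+ ran from 11.9 through a median of 14.8 to 21.2 CPM, and FUN025/FUN025 had 20.6, 13.9, 12.7, 16.6 and 12.8 CPM. WT 2 lay among the lower mutant libraries, and FUN025/+ 6 and FUN025/FUN025 1 lay among the higher WT libraries. Relative to WT, Ier2 had log2 fold changes of -0.33 ± 0.17 (SE; adjusted p = 0.227, edgeR) and -0.31 ± 0.18 (adjusted p = 0.268, edgeR).

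Atf3 (ENSMUSG00000026628, chromosome 1, 191170296 to 191218039, minus strand), a CREB family factor induced by cellular stress and injury, was at 5.29, 6.51, 6.89 and 8.84 CPM in WT. FUN025/+ ran from 4.61 through a median of 5.23 to 6.17 CPM, and FUN025/FUN025 had 5.25, 3.62, 6.18, 10.8 and 6.08 CPM. Its highest and lowest libraries were both FUN025/FUN025. The log2 fold changes relative to WT were -0.38 ± 0.22 (SE; adjusted p = 0.263, edgeR) and -0.11 ± 0.22 (adjusted p = 0.778, edgeR).

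Dusp1 (ENSMUSG00000024190, chromosome 17, 26505590 to 26562128, minus strand) encodes a phosphatase that switches off MAP kinases, and is induced by the same signals as Fos as a brake on them. The WT libraries lay close together, at 66.2, 53.4, 57.7 and 63.6 CPM. FUN025/+ ran from 30.02 through a median of 41.4 to 87.6 CPM, and FUN025/FUN025 had 43.5, 37.95, 36.6, 77.3 and 46.2 CPM. In each mutant genotype 1 library lay above all WT mice, FUN025/+ 6 and FUN025/FUN025 4, and the others lay below all of them. Relative to WT, Dusp1 had log2 fold changes of -0.35 ± 0.29 (SE; adjusted p = 0.464, edgeR) and -0.32 ± 0.30 (adjusted p = 0.531, edgeR).

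Hspa1a and Hspa1b encode the stress-inducible 70-kDa heat shock proteins, chaperones that refold damaged proteins, from neighbouring genes on the minus strand of chromosome 17. Hspa1a (ENSMUSG00000091971, 34969190 to 34972156) had 22.1, 24.7, 32.5 and 21.7 CPM in WT, ran from 18.9 through a median of 24.1 to 31.1 CPM in FUN025/+, and had 29.0, 25.9, 23.5, 24.8 and 24.05 CPM in FUN025/FUN025. This was the steadiest member, and its log2 fold changes relative to WT were -0.067 ± 0.14 (SE; adjusted p = 0.791, edgeR) and 0.012 ± 0.14 (adjusted p = 0.968, edgeR). Hspa1b (ENSMUSG00000090877, 34956436 to 34959238) had 20.3, 21.3, 46.0 and 20.5 CPM in WT, ran from 18.2 through a median of 24.3 to 60.5 CPM in FUN025/+, and had 38.1, 30.7, 24.7, 30.2 and 36.5 CPM in FUN025/FUN025. Single libraries, WT 3 and the libraries FUN025/+ 1 and 6, stood well above the others of their genotype. The log2 fold changes of Hspa1b relative to WT were 0.37 ± 0.39 (SE; adjusted p = 0.561, edgeR) and 0.24 ± 0.40 (adjusted p = 0.737, edgeR).

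**Figure D2:**
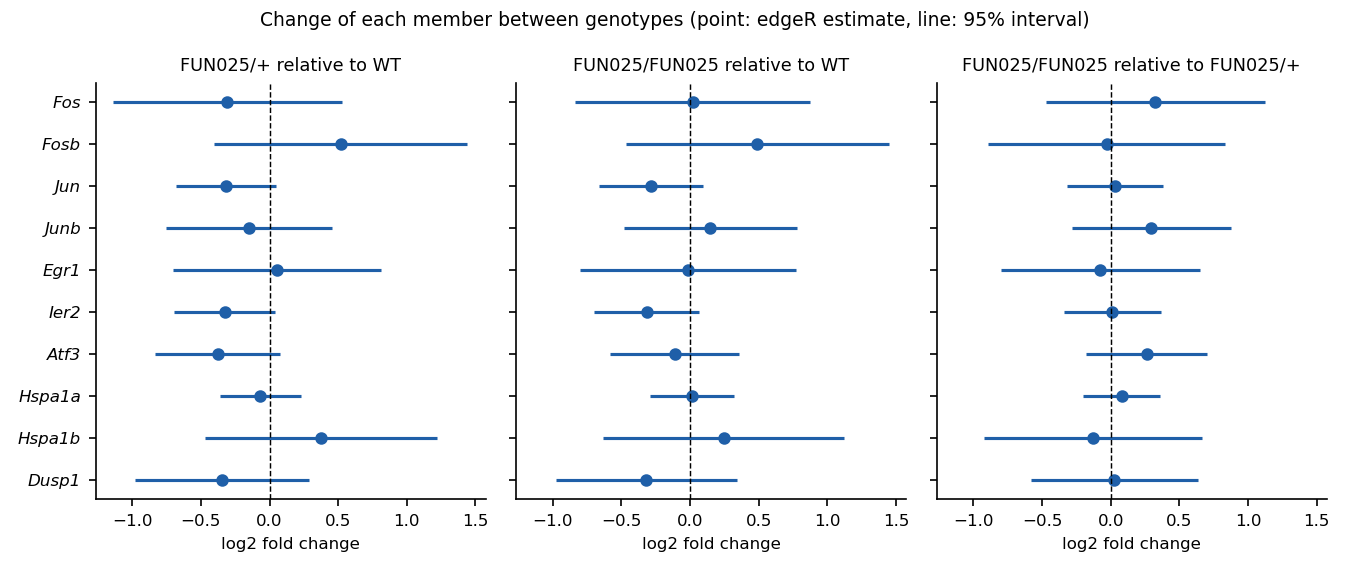
Log2 fold change (x axis) of each of the 10 genes (rows) for the 3 pairs of genotypes, with points for the edgeR estimate and lines for its 95% interval over all 15 mice; the dashed line is at 0. All 30 intervals contain 0, and those of Fos, Fosb, Egr1 and Hspa1b are the widest.

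Between FUN025/FUN025 and FUN025/+, the log2 differences of the members ran from -0.13 (Hspa1b) to 0.32 (Fos), each with an adjusted p of 0.9996 in edgeR. Per kilobase of exon sequence, Jun had the highest level of the 10 (25.8 CPM per kilobase on average in WT), followed by Dusp1 (18.2), Junb (14.4) and Ier2 (12.6). Fosb had the lowest at 0.279 CPM per kilobase.

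The members differed widely between mice of 1 genotype. The SD of log2 CPM within a genotype, pooled over the 3 genotypes, was 0.68 for Fosb, 0.60 for Fos, 0.58 for Hspa1b, 0.55 for Egr1, 0.45 for Dusp1, 0.44 for Junb and 0.37 for Atf3. It was lower for Ier2 (0.30), Jun (0.27) and Hspa1a (0.24). The median of the 10 members was 0.44, beside 0.159 over all genes tested, and 10 of 10 members lay above the latter. For Fos, 1 SD corresponds to a 1.52-fold difference between mice of the same genotype, and 5.05% of all genes had a larger SD. Of the 17587 genes with a mean of at least 1 CPM, 10% had an SD above 0.40, as had 6 of the 10 members.

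In edgeR's estimates, the biological coefficient of variation of each member was above the trend over genes of the same level. The ratio to the trend was 3.67 for Hspa1b, 3.53 for Egr1, 3.13 for Dusp1, 2.74 for Junb and 2.18 for Fos. It was 1.80 for Jun, 1.78 for Fosb, 1.27 for Ier2, 1.22 for Hspa1a and 1.14 for Atf3. The share of all genes with a larger ratio was 0.991% for Hspa1b, 9.38% for Ier2, 10.3% for Hspa1a and 12.6% for Atf3.

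**Figure D3:**
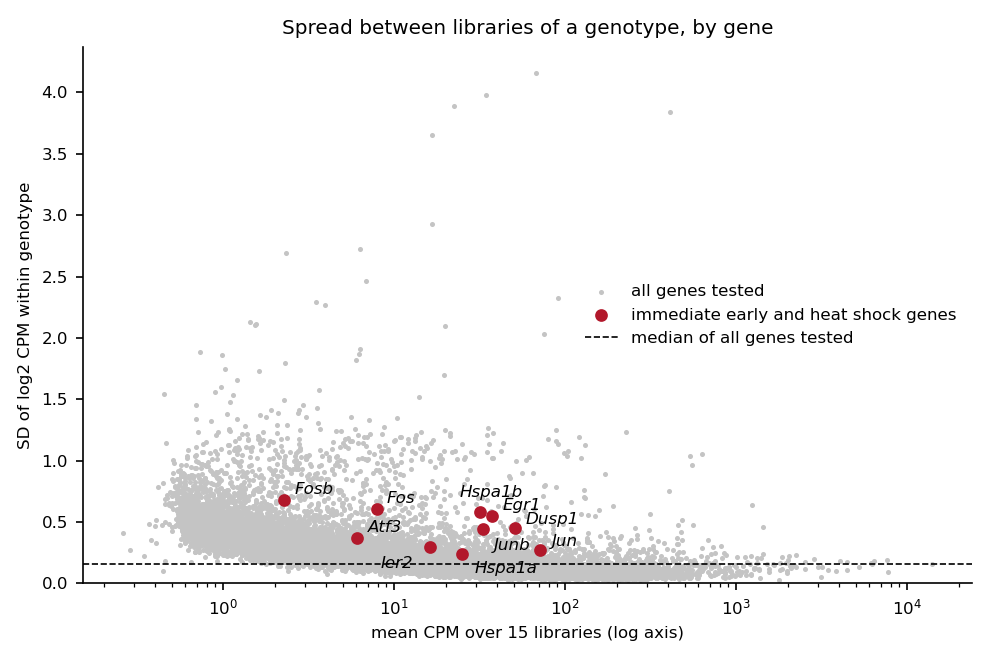
SD of log2 CPM within a genotype, pooled over the 3 genotypes (y axis), against mean CPM over the 15 libraries (x axis, log scale) for the 18979 genes tested (grey) and the 10 members (red); the dashed line is the median of all genes, 0.159. All 10 members lie above the line, between 0.24 (Hspa1a) and 0.68 (Fosb).

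The spread was present in each genotype. The median SD of the members was 0.28 in WT, 0.48 in FUN025/+ and 0.45 in FUN025/FUN025, where that of all genes was 0.142, 0.157 and 0.146. An exact permutation test of the Brown-Forsythe statistic, over all 630630 assignments of the 15 mice, gave unadjusted p-values from 0.175 (Hspa1a) to 0.983 (Ier2), so a difference of spread between genotypes was not detected for any member. Individual SDs pointed different ways. Dusp1 had an SD of 0.14 in WT, 0.56 in FUN025/+ and 0.43 in FUN025/FUN025 (exact permutation p = 0.274), while Egr1 had 0.74 in WT, 0.47 in FUN025/+ and 0.47 in FUN025/FUN025 (exact permutation p = 0.245).

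Some mice stood out in many members at once. The library FUN025/+ 6 was the highest of its genotype for 8 of 10 members and lay above the genotype mean for 10 of 10, by a median of 0.59 on the log2 scale. FUN025/FUN025 4 was the highest for 6 members (median deviation 0.51) and FUN025/FUN025 1 for the other 4 (0.23). At the other end, FUN025/+ 5 was the lowest for 8 members, FUN025/FUN025 3 for 7 and WT 2 for 6. The shares of all genes for which these libraries were highest or lowest were not computed, so these counts are not particular to the members. Over all genes, FUN025/+ 6 and FUN025/+ 3 differed most of all pairs of the same genotype (chi-square per gene 18.3). FUN025/FUN025 4 was highest for Fos, Fosb, Jun, Junb, Atf3 and Dusp1, but its Hspa1a (24.8 CPM) and Hspa1b (30.2 CPM) were the third and the fourth highest of its 5 libraries. Leaving out FUN025/+ 6 lowered the pooled SD of Fos from 0.60 to 0.47, of Jun from 0.27 to 0.21 and of Dusp1 from 0.45 to 0.33, and leaving out FUN025/FUN025 4 lowered that of Atf3 from 0.37 to 0.26. With any single mouse left out, the median SD of the members stayed between 0.37 and 0.46, above the 0.159 of all genes. Time from death to freezing, handling of the mice and dissection order had no values here, and their part in the spread was not tested.

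Across the 15 libraries, with genotype means removed, the members varied together in part. Of the 45 pairs of members, 44 had a positive Pearson's r and the median r was 0.57, beside 49.8% positive and a median of -0.0019 over all pairs of genes tested. The pairs share libraries, scaling and, in part, known regulators, and the members were chosen as 1 group. The highest r was that of Fos with Junb (r = 0.926, permutation p = 1e-04, adjusted p = 0.0038; Spearman's rho = 0.946, permutation p = 5e-05, adjusted p = 0.0011), and it was 0.848 after the 2 libraries farthest from the median of Fos were left out. Fos with Egr1 gave r = 0.823 (permutation p = 0.00028, adjusted p = 0.0042 over 45 pairs), rho = 0.811 (permutation p = 0.00115, adjusted p = 0.0094) and 0.904 without those 2 libraries.

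Jun with Junb gave r = 0.824 (permutation p = 0.00102, adjusted p = 0.0054) and rho = 0.646 (permutation p = 0.0158, adjusted p = 0.0509), falling to r = 0.586 without the 2 libraries farthest on Jun. Fos with Dusp1 gave r = 0.831 (permutation p = 0.00087, adjusted p = 0.0054), rho = 0.771 (permutation p = 0.00146, adjusted p = 0.0094) and 0.588 without 2. Hspa1a with Hspa1b gave r = 0.836 (permutation p = 0.00109, adjusted p = 0.0054), rho = 0.746 (permutation p = 0.00365, adjusted p = 0.0205) and 0.683 without 2. Across the 2 kinds of gene, Fos with Hspa1a did not pass (r = 0.477, permutation p = 0.109, adjusted p = 0.169; rho = 0.411, permutation p = 0.149, adjusted p = 0.231; 0.292 without 2). Jun with Hspa1a did (r = 0.654, permutation p = 0.0151, adjusted p = 0.0440, 0.666 without 2), although its rho of 0.682 had an adjusted permutation p of 0.0513. Junb passed on r with Hspa1a (0.620, 0.577 without 2) and Hspa1b (0.617, 0.566 without 2), both at an adjusted permutation p of 0.0412, with rho of 0.543 and 0.536 (adjusted permutation p of 0.0941 for both). The median r was 0.62 over the 28 pairs of immediate early genes, counting Dusp1 and Atf3 among them, and 0.49 over the 16 pairs that join an immediate early with a heat shock gene, a difference that was not tested. The lowest r was that of Egr1 with Atf3 (r = -0.083, permutation p = 0.777, adjusted p = 0.777; rho = -0.146, permutation p = 0.638, adjusted p = 0.668; 0.139 without 2). Of the 45 pairs, 18 had an adjusted permutation p under 0.05. With FUN025/+ 6 and FUN025/FUN025 4 left out, a choice made after seeing the data, that count was 6 and the median r 0.40 over 13 libraries, and the part of the smaller n in the lower count was not tested. The 6 pairs were Fos with Junb, Egr1 and Ier2, Ier2 with Junb and Egr1, and Hspa1a with Hspa1b. Jun with Junb, Fos with Dusp1, Jun with Hspa1a and Junb with either heat shock gene no longer passed (adjusted permutation p = 0.162 for each), so 0 of the 16 pairs that join both kinds of gene passed.

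**Figure D4:**
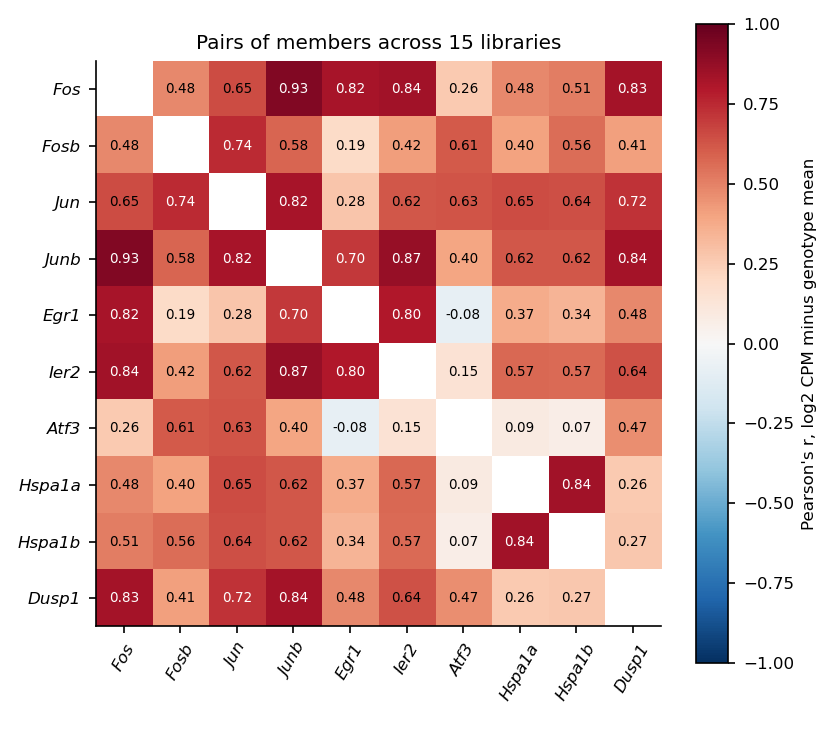
Pearson's r (colour, and printed in each cell) for the 45 pairs of members over 15 libraries, on log2 CPM with the genotype mean removed. The block of Fos, Junb, Egr1 and Ier2 holds r from 0.70 to 0.93, Hspa1a and Hspa1b pair at 0.84, and Atf3 is near 0 with Egr1, Hspa1a and Hspa1b.

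The genes outside the group that moved most like Fos, among 17577 with a mean of at least 1 CPM, were 1700010I14Rik (r = 0.857 over 15 libraries), Taf5l (0.849), Ap1ar (0.830), Fgf10 (0.804) and Zfp473 (0.801). Those most like Hspa1a were Ap1s3 (r = 0.940), Serpinb8 (0.940), Fam129b (0.937), Prss8 (0.934) and Fgfbp1 (0.927). Prss8 and Fgfbp1 are genes known from epithelia. This led to a list of 10 surface epithelium genes, mostly keratins of the cornea, conjunctiva and skin, which are not parts of the posterior eyecup, and the list was therefore chosen with the values known, in part for its likeness to Hspa1a, so that what follows from it is a description. Its summed level was 340.4 to 2161 CPM in WT, 483 to 5035 CPM in FUN025/+ and 993 to 2598 CPM in FUN025/FUN025. Krt5, a keratin of basal cells, ran from 124 to 1667 CPM over all libraries, and the corneal keratin Krt12 from 2.25 CPM to 969 CPM in FUN025/+ 6.

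The level of Hspa1b followed that sum closely, and those of several immediate early genes did so in part. Over 15 libraries with genotype means removed, r between log2 CPM and the log2 sum was 0.968 for Hspa1b (0.940 without the 2 libraries farthest in the sum) and 0.858 for Hspa1a (0.710 without 2). Among the others it was 0.694 for Jun (0.562 without 2), 0.631 for Junb (0.387 without 2), 0.561 for Fosb (0.688 without 2) and 0.561 for Ier2 (0.295 without 2). It was 0.484 for Fos (0.149 without 2), 0.292 for Dusp1 (-0.080 without 2), 0.252 for Egr1 (-0.053 without 2) and 0.195 for Atf3 (0.186 without 2). With a linear term for the sum, the within-genotype SD of Hspa1b went from 0.58 to 0.15, with 6.30% of its variance left, and that of Hspa1a from 0.24 to 0.13, with 26.3% left. For Jun the variance left was 51.8%, for Junb 60.2%, for Fosb 68.5%, for Ier2 68.6%, for Fos 76.5%, for Egr1 93.6%, for Dusp1 91.5% and for Atf3 96.2%. Each share left follows from r over the 15 libraries alone, so it restates that correlation and is not a second result. The part of these cells in the level of any member was not tested.

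**Figure D5:**
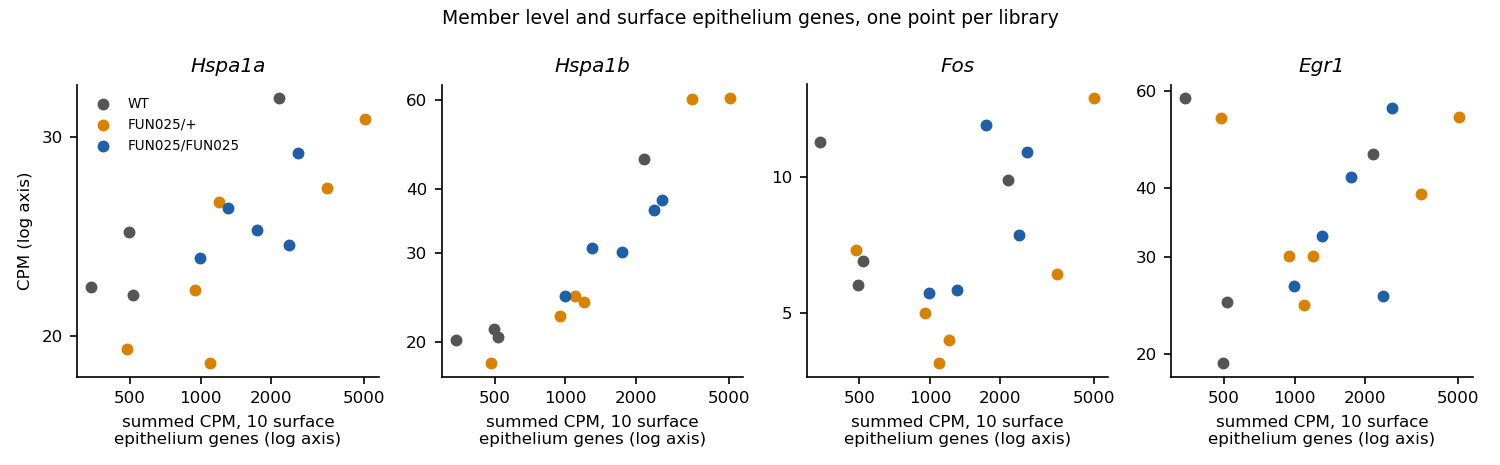
CPM of Hspa1a, Hspa1b, Fos and Egr1 (y axes, log scale) against the summed CPM of 10 surface epithelium genes (x axes, log scale), 1 point per library, coloured by genotype. Hspa1b rises along with the sum, from about 20 CPM in the WT libraries with the lowest sums to 60.5 CPM at a sum of 5035, whereas Egr1 is at 58.3 CPM in WT 1, the library with the lowest sum, 340.4.

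The ratio of Hspa1b to Hspa1a counts also differed between libraries, although 63.8% of the 31-base words of Hspa1a transcripts are found in Hspa1b too and reads from the shared parts could not be assigned to either gene with certainty. The ratio was 2.22 in FUN025/+ 1, 1.95 in FUN025/+ 6, 1.52 in FUN025/FUN025 5, 1.42 in WT 3 and 1.31 in FUN025/FUN025 1, and these were also the 5 libraries with the highest sums of surface epithelium genes. The lowest ratio was 0.861, in WT 2.

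With the log2 sum of surface epithelium genes as a covariate in edgeR, a choice made after seeing the data, the log2 fold changes in FUN025/+ relative to WT were -0.55 for Jun, -0.52 for Ier2, -0.29 for Hspa1a and -0.32 for Hspa1b. In FUN025/FUN025 relative to WT, that of Jun was -0.53 and that of Hspa1b -0.41. For Hspa1b the covariate turned the sign of the estimate in both. The sum was higher in most mutant than WT libraries, and the list was picked for following Hspa1a in these same libraries, so these estimates are a description.

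Other genes of the same response gave a mixed picture. Among 33 other immediate early genes, of which 32 were tested, 4 fell and 0 rose in FUN025/+ relative to WT, with a list median of -0.14, where 6.61% of all genes tested fell and 7.09% rose. These were Npas4 (-1.37 ± 0.41, SE), Socs3 (-0.55 ± 0.12), Ier5 (-0.45 ± 0.069) and Jund (-0.28 ± 0.075), with adjusted p-values of 0.0330, 0.0043, 0.00031 and 0.0189 in edgeR. Npas4 was barely measured, at 0.444 CPM in FUN025/+ and 1.19 CPM in WT. In FUN025/FUN025 relative to WT, 2 fell, Ier5 (-0.59 ± 0.072, adjusted p = 2.94e-05 in edgeR) and Klf2 (-0.42 ± 0.13, adjusted p = 0.0460), and 0 rose, with a list median of -0.024, where 7.02% of all genes fell and 7.03% rose. Between the mutants none passed, where 0.195% of all genes fell and 0.327% rose, and the smallest p was that of Npas4 (log2 difference 1.04, adjusted p = 0.656 in edgeR).

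Among 23 other heat shock and chaperone genes, 5 fell and 0 rose in FUN025/+, where 6.61% of all genes fell. Bag3, a co-chaperone of the 70-kDa proteins, had a log2 fold change of -0.36 ± 0.075 (SE; 47.9 against 61.4 CPM). Hspb8, a small heat shock protein that binds Bag3, was at -0.32 ± 0.100, Hsph1, a nucleotide exchange factor, at -0.31 ± 0.061, the small heat shock protein Cryab at -0.22 ± 0.061 and Stip1, which links chaperones, at -0.18 ± 0.058, with adjusted p-values from 0.0027 to 0.0452 in edgeR. In FUN025/FUN025, 3 fell and 0 rose, where 7.02% of all genes fell, namely Bag3 (-0.42 ± 0.078), Hsph1 (-0.34 ± 0.064) and Serpinh1 (-0.21 ± 0.059), a collagen chaperone. The list medians were -0.097 and -0.078, and 0 of 23 passed between the mutants. These constitutive or partly inducible chaperones varied little between mice, with a median within-genotype SD of 0.093 and 4 of 23 above the median of all genes. For the 32 other immediate early genes that median was 0.276, with 28 of 32 above.

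Of 18 upstream regulators, Hsf1, which encodes heat shock factor 1, was lower in both mutants, with a log2 fold change of -0.33 ± 0.056 (SE) in FUN025/+ (39.1 against 49.3 CPM, adjusted p = 0.00068 in edgeR) and of -0.28 ± 0.058 in FUN025/FUN025 (adjusted p = 0.0036). Map2k2, a kinase upstream of the MAP kinases, was lower, at -0.26 in each (adjusted p = 0.0023 and 0.0029 in edgeR). Creb1, whose product binds the cyclic AMP response element, was higher by 0.17 in each (adjusted p = 0.0126 and 0.0193 in edgeR). Atf2 (0.18, adjusted p = 0.0382 in edgeR) was also higher in FUN025/+. The groups did not overlap for Hsf1, Map2k2 or Creb1 in either comparison with WT. Regulators were steady between mice (median SD 0.091, 1 of 18 above the median of all genes).

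Against the same shares of all genes (6.61% lower in FUN025/+ and 7.02% lower in FUN025/FUN025), the remaining lists were counted in the same way. The other MAP kinase inhibitors, 13 tested of 14 dual specificity phosphatase and Sprouty genes, had 1 fall (Dusp8, -0.74) and 1 rise (Spred1, 0.14) in FUN025/+ and 1 fall (Spry1, -0.50) in FUN025/FUN025. Glucocorticoid targets, listed because handling raises corticosterone and sharing Per1 and Errfi1 with the other immediate early genes, had 3 of 13 lower in FUN025/+ (Pdk4 at -0.90, Mt2 at -0.54 and Klf9 at -0.43) and 5 of 13 lower in FUN025/FUN025 (Map3k6 at -0.88, Pdk4 at -0.62, Sult1a1 at -0.57, Klf9 at -0.49 and Mt2 at -0.28), with 0 higher in either. The list medians were -0.38 and -0.49, and the members' own medians were -0.23 and -0.0026. Of 10 acute inflammatory genes tested, 0 passed in FUN025/+ and 1 (Icam1, -0.31, adjusted p = 0.0216 in edgeR) in FUN025/FUN025. Skeletal muscle markers, 3 of 10, and endothelium markers, 2 of 7 in FUN025/+ and 5 of 7 in FUN025/FUN025, were lower in the mutants as well, with 0 higher. Rod and lens markers had larger median differences from WT, although 0 of them passed in edgeR. All 10 rod markers were below 0 in both genotypes, with median log2 fold changes of -1.78 in FUN025/+ and -1.85 in FUN025/FUN025. In each, 8 of 10 had an unadjusted p under 0.05 in edgeR, and DESeq2 called 2 and 1 of them and limma-voom 0. All 6 lens markers were above 0, with medians of 1.86 and 3.35, where 0 and 2 had an unadjusted p under 0.05 in edgeR and neither DESeq2 nor limma-voom called any. Their sums overlapped between genotypes. The rod sum ran from 229.7 to 2232 CPM in WT, from 86.8 to 658 CPM in FUN025/+ and from 93.6 to 416 CPM in FUN025/FUN025, and the lens sum from 4.17 to 19.6, 4.23 to 98.1 and 4.39 to 209.8 CPM. The 5 blood markers were below 0 as well (medians -1.16 and -0.41), where 0 passed with any of the 3 tools and 1 and 0 had an unadjusted p under 0.05 in edgeR. The part of tissue make-up in the values of the members and of these lists was not tested.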

How the data were processed

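RNA from 15 eyecup samples was sequenced by the study, and reads were trimmed with Trimmomatic 0.39, aligned with HISAT2 2.1.0 to GRCm38 and counted per gene with featureCounts 2.0.0, per the labels. The authors deposited raw counts per gene, 1 table per mouse, and no strand or multimapping setting was given in the sources used here. Jun, Junb, Hspa1a and Dusp1 overlap an exon of a gene on the opposite strand (Junos, Prdx2, Gm20481 and Ergic1), and of the 31-base words of their transcripts 70.1% in Hspa1a and 68.1% in Hspa1b occur in other genes, so these counts are uncertain. Gene names came from GENCODE M21, which held 55240 of the 55421 IDs.

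From the counts, genes in the bottom 15% by variance were dropped, following the study's methods, low counts were filtered with filterByExpr, and 18979 genes were fitted over all 15 mice with edgeR 4.0.16 (quasi-likelihood, robust, TMM factors 0.976 to 1.02), with Benjamini-Hochberg adjustment over all of them. Spread was computed on log2 CPM with a prior count of 2. Pair correlations used 100000 permutations within genotypes. DESeq2 1.42.0 and limma 3.58.1 (R 4.3.3), other filters, scalings and designs, and each mouse left out were alternatives. Libraries of a genotype differed by more than sampling noise (chi-square per gene 3.16 to 18.3), so none was a repeat. Replicate numbers carried no pairing, with correlations of same-numbered deviations from -0.385 to 0.133. The scripts were tested on simulated data. The 10 members and the other lists were chosen with earlier results of these data known. Named genes were the members, up to 4 genes a list and comparison with the largest called change, or 2 with the smallest p where none was called, and 5 genes most like Fos and Hspa1a. Stip1 in FUN025/+ and Mt2 in FUN025/FUN025 complete counts of 5 and, like the surface epithelium genes, were named after their values were seen. Of fibroblast, macrophage, RPE, rod, blood and lens markers none passed in any comparison in edgeR. Some results are not reported here.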

Additional observations from a re-analysis of the deposited data

Results flagged for a closer look

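In 5 of 30 groups of 4 to 6 libraries, 1 library stood farther from the others than Dixon's criterion allows, where chance gives about 1 in 20 and 6.05% of such groups over all genes tested did so. The groups are not independent, since members vary together and 4 of the 5 come from FUN025/+ 6 and FUN025/FUN025 4. The library FUN025/+ 6 had 15.005 CPM of Fos, with the next library at 6.89 CPM, and 87.6 CPM of Dusp1, with the next at 50.8 CPM. FUN025/FUN025 4 had 5.18 CPM of Fosb, with the next at 2.23 CPM, and 77.3 CPM of Dusp1, with the next at 46.2 CPM. WT 3 had 46.0 CPM of Hspa1b, where the other WT libraries had 20.3 to 21.3 CPM. The summed surface epithelium genes of these libraries were at 5035, 1740 and 2161 CPM, and their part in the outlying values was not tested.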

How the results depend on the processing

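The count of 0 of 10 members past the threshold was kept in each comparison under 7 other settings (DESeq2's size factors, DESeq2's Wald test, limma-voom, other low-count filters, no variance filter and fits of only the genotypes compared). For FUN025/+ relative to WT it was 1 with a replicate block, in which Jun passed (-0.42, adjusted p = 0.0398 in edgeR), and 0 to 1 with single mice left out, Jun passing without FUN025/+ 6. The block changed no other call of a member, and same-numbered mice did not deviate together. With the surface epithelium covariate, chosen after seeing the data, the count was 4 for FUN025/+ and 2 for FUN025/FUN025 relative to WT, where 2225 and 2013 of 18979 genes passed in the same fit. Since the covariate was picked for following Hspa1a, these counts, of Jun, Ier2, Hspa1a and Hspa1b in FUN025/+ and of Jun and Hspa1b in FUN025/FUN025, are a description. With FUN025/+ 6 and FUN025/FUN025 4 left out 6 pairs of members had an adjusted permutation p under 0.05. Genes called numbered 1433 to 2719 (FUN025/+ relative to WT) and 1519 to 2697 (FUN025/FUN025 relative to WT) with single mice left out, the lowest counts both without WT 4, and 171 with DESeq2 in place of 99 between the mutants. The median SD of the members ran from 0.37 to 0.46 with single mice left out. The causes were not tested.

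Signs turned for some estimates. With the covariate the log2 fold changes in FUN025/+ were -0.064 for Fosb, -0.055 for Egr1 and -0.32 for Hspa1b, and in FUN025/FUN025 -0.39 for Fos, -0.068 for Fosb, -0.21 for Junb, -0.24 for Hspa1a and -0.41 for Hspa1b, with -0.010 for Ier2 between the mutants. With limma-voom Egr1 in FUN025/FUN025 was at 0.076 and Hspa1b between the mutants at 0.024. With the replicate block these were 0.18 and 0.16, and Fosb and Egr1 between the mutants were at 0.090 and 0.053. With single mice left out, estimates that crossed 0 ran in FUN025/+ from -0.15 to 0.36 (Egr1) and -0.15 to 0.083 (Hspa1a). In FUN025/FUN025 they ran from -0.17 to 0.22 (Fos), -0.020 to 0.28 (Junb), -0.22 to 0.28 (Egr1), -0.38 to 0.036 (Atf3) and -0.047 to 0.17 (Hspa1a). Between the mutants they ran from -0.49 to 0.31 (Fosb), -0.079 to 0.17 (Jun), -0.28 to 0.048 (Egr1), -0.12 to 0.13 (Ier2), -0.0024 to 0.41 (Atf3), -0.26 to 0.097 (Hspa1b) and -0.20 to 0.30 (Dusp1). A count of 3 corresponds to 0.15 CPM in the deepest and 0.275 CPM in the shallowest library, below each value of a member given here.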
